A study of Mus musculus with 6 samples.

Results

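The matrix-binding integrins described here are 10 subunit genes, Itga1, Itga5, Itga6, Itga7, Itga9, Itga11, Itgav, Itgb1, Itgb3 and Itgb5, among the 35122 genes counted in the adipocyte fraction of mouse epididymal fat. They were chosen by name, as subunits whose receptors bind collagen, laminin, fibronectin or other matrix proteins, with earlier results of these data known, and all 10 passed the filter on low counts. RNA was compared between 3 control mice, PU.1 fl/fl, and 3 aPU.1KO mice, AdipoqCre PU.1 fl/fl, with 1 library for each mouse. All 6 were male C57BL/6 mice on a chow diet, 10 to 11 months old by the labels and more than a year old by the study's text. Both groups carried Spi1 alleles with a loxP-flanked exon, and the aPU.1KO mice also carried a Cre recombinase driven by the promoter and enhancer of adiponectin, a gene of adipocytes, so that Spi1 was targeted in adipocytes and not in the macrophages or vessels of the fat pad. The RNA came from the floating layer of a collagenase digest, which can hold other cells stuck to adipocytes. In such bulk RNA, fewer cells of a type and less RNA per cell cannot be told apart.

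Integrins are receptors made of an α and a β subunit that tie the cytoskeleton to the extracellular matrix and signal through it in both directions. The α chain sets most of the ligand choice, and the β chain carries the tail that talin and kindlin bind. Adipocytes sit in a basement membrane of laminin and collagen IV, and during fat cell differentiation the balance is known to move from the fibronectin receptor α5β1 to the laminin receptor α6β1. Itgb1 pairs with many α chains, Itgb3 and Itgb5 pair here with αv, and PU.1, the product of Spi1, is an ETS transcription factor best known from myeloid and B cells.

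The aPU.1KO libraries held 20550252 to 24310144 counts, and those of control mice 1, 2 and 3 held 69283842, 22770714 and 23392407. Spi1 was at 24.3, 6.35 and 26.7 CPM (counts relative to the library total, scaled by TMM factors, on the usual CPM scale) in control mice 1, 2 and 3 and at 3.20, 1.22 and 4.17 CPM in aPU.1KO mice 1, 2 and 3. The groups did not overlap, and control mouse 2 was the low control library (log2 fold change -2.75, SE 0.64, edgeR adjusted p = 0.0788, DESeq2 adjusted p = 7.65e-05). The counts are per gene, so reads from the other exons of Spi1 were included. The adipocyte list of 10 genes summed to between 41740 and 45592 CPM in the control libraries and to between 51362 and 59518 CPM in the aPU.1KO libraries, with 7 genes higher and 1, Lep, lower at an unadjusted p under 0.05.

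All 10 integrin subunits had lower mean levels in the aPU.1KO adipocyte fractions, and those of lowest CPM were furthest below the control level. A link between level and difference was not tested. Itga11 was at 33.9% of its control mean, Itga9 at 39.0%, Itga5 at 49.9% and Itgb3 at 55.4%. Itga1 was at 78.7%, Itgav at 80.1%, Itga7 at 82.0%, Itgb1 at 84.3%, Itga6 at 94.3% and Itgb5 at 99.6%. In 6 of the 10 genes, Itga5, Itga7, Itga9, Itga11, Itgav and Itgb3, every aPU.1KO library was below every control library, and no gene was higher in this way. Over all 13925 genes tested, 15.5% were lower without overlap and 16.7% were higher. The median log2 fold change (aPU.1KO over control) of the 10 genes was -0.33, beside 0.014 over all genes tested, and all 10 were below 0, as were 48.0% of all genes.

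None of the 10 passed an adjusted p of 0.05 in edgeR's quasi-likelihood test, in which 0.237% of all genes passed. At an unadjusted p under 0.05, 5 were lower (Itga5, Itga9, Itga11, Itgav and Itgb3) and 0 were higher, beside 13.7% lower and 11.9% higher over all genes. With DESeq2, 4 passed an adjusted p of 0.05, each lower (Itga5, Itga9, Itga11 and Itgav), beside 7.48% of the genes it tested. Without control mouse 2 edgeR called 3 lower, Itga5, Itga9 and Itga11, and without each of the other mice it called 0. In the fit without control mouse 2 edgeR called 1193 of all genes, 991 of them lower. With 3 mice against 3, an exact two-sided permutation test of a single gene cannot go below p = 0.1.

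**Figure D1:**
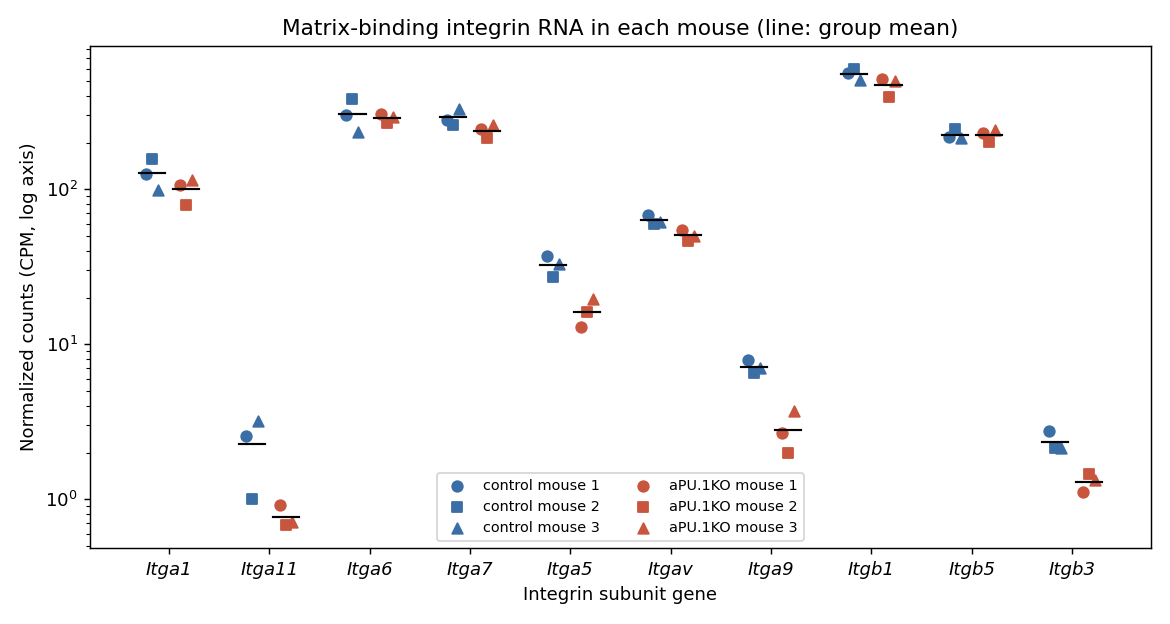
Normalized counts of the 10 integrin subunit genes in each mouse, in CPM on a log axis, with blue points for control, red points for aPU.1KO and a line at each group mean. Red points lie below all blue points in Itga11, Itga7, Itga5, Itgav, Itga9 and Itgb3, and the groups overlap in Itga1, Itga6, Itgb1 and Itgb5.

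The collagen-binding α subunits were Itga1 and Itga11, whose products pair with Itgb1. Itga1 (chromosome 13, 114953096 to 115101964, minus strand, GRCm38) encodes α1, a receptor that favours collagen IV. It was at 126, 157 and 98.5 CPM in control mice 1, 2 and 3 and at 107, 79.1 and 114 CPM in aPU.1KO mice 1, 2 and 3. The groups overlapped, since control mouse 3 lay below aPU.1KO mice 1 and 3. The means were 127 ± 29.4 and 100.1 ± 18.5 CPM (SD, n = 3 each), and the log2 fold change was -0.35 (SE 0.20, edgeR adjusted p = 0.326). With each mouse left out in turn it ranged from -0.50, without control mouse 3, to -0.17, without control mouse 2, and it was -0.20 without aPU.1KO mouse 2. Itga1 shares 685 bp of exon with Gm49395 on the same strand, a gene with 364 counts over all libraries.

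Itga11 (chromosome 9, 62677826 to 62783982, plus strand) encodes α11, a receptor for fibrillar collagen best known from fibroblasts. It was at 2.58, 1.01 and 3.21 CPM in the control mice and at 0.915, 0.678 and 0.710 CPM in the aPU.1KO mice. All aPU.1KO libraries were below all control libraries, but control mouse 2 was close to aPU.1KO mouse 1, with 23 counts beside 18. The means were 2.26 ± 1.14 and 0.768 ± 0.128 CPM (SD, n = 3 each), and the log2 fold change of -1.57 (SE 0.46) had an edgeR adjusted p of 0.105 and a DESeq2 adjusted p of 0.0285. Without control mouse 2 the edgeR adjusted p was 0.0181, and without control mouse 1 it was 0.394.

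The laminin-binding α subunits, Itga6 and Itga7, were the most abundant α subunits. Itga6 (chromosome 2, 71745616 to 71858416, plus strand) encodes α6, which with β1 binds basement membrane laminin. It was at 303, 383 and 234 CPM in the control mice and at 308, 266 and 292 CPM in the aPU.1KO mice. The aPU.1KO libraries lay inside the control range, with means of 306 ± 74.6 in control and 289 ± 21.1 CPM in aPU.1KO (SD, n = 3 each). The log2 fold change of -0.08 (SE 0.18, edgeR adjusted p = 0.794) was smaller than its error.

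Itga7 (chromosome 10, 128933818 to 128958282, plus strand) encodes α7, a laminin receptor best known from muscle. It was at 282, 261 and 332 CPM in the control mice and at 244, 215 and 259 CPM in the aPU.1KO mice. The groups did not overlap, but control mouse 2 and aPU.1KO mouse 3 were nearly level, and with upper quartile scaling in place of TMM the groups overlapped. The means were 292 ± 36.3 and 239 ± 22.3 CPM (SD, n = 3 each), with a log2 fold change of -0.29 (SE 0.12, edgeR adjusted p = 0.195). Without control mouse 3 it was -0.19. Its exons overlap those of Mettl7b on the opposite strand by 9 bp.

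The α subunits that bind the RGD motif of fibronectin and vitronectin were Itga5 and Itgav. Itga5 (chromosome 15, 103344286 to 103366763, minus strand) encodes α5, whose only partner is β1 and whose main ligand is fibronectin. It was at 37.1, 27.2 and 33.1 CPM in the control mice and at 12.96, 16.1 and 19.5 CPM in the aPU.1KO mice. The lowest control library stood clear of the highest aPU.1KO library, and control mouse 2, the low library for Spi1, was the lowest control. The means were 32.5 ± 4.98 and 16.2 ± 3.28 CPM (SD, n = 3 each), a level 2.01-fold lower in aPU.1KO. The log2 fold change was -1.01 (SE 0.18), with an edgeR adjusted p of 0.0724 and a DESeq2 adjusted p of 6.40e-05. The edgeR adjusted p was 0.0182 without control mouse 2 and 0.313 without control mouse 1.

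Itgav (chromosome 2, 83724397 to 83806916, plus strand) encodes αv, which pairs with β1, β3, β5 and others and also releases latent TGF-β. It was at 68.0, 59.4 and 61.7 CPM in the control mice and at 54.9, 46.6 and 50.1 CPM in the aPU.1KO mice. The libraries of each group were close together and the groups did not overlap. The means were 63.0 ± 4.43 and 50.5 ± 4.21 CPM (SD, n = 3 each), and the log2 fold change of -0.32 (SE 0.09) had an edgeR adjusted p of 0.103 and a DESeq2 adjusted p of 0.0472. Its exons overlap those of Gm13684 on the opposite strand by 634 bp.

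Itga9 (chromosome 9, 118606690 to 118901003, plus strand) encodes α9, which pairs with β1 and binds tenascin C, osteopontin, EMILIN1 and VCAM1. It was at 7.88, 6.52 and 7.06 CPM in the control mice and at 2.69, 1.99 and 3.69 CPM in the aPU.1KO mice. No library of one group came near the other, and control mouse 2 lay with the other control mice. The means were 7.15 ± 0.682 and 2.79 ± 0.857 CPM (SD, n = 3 each), a level 2.57-fold lower. The log2 fold change was -1.36 (SE 0.25), with an edgeR adjusted p of 0.0724 and a DESeq2 adjusted p of 5.57e-05. The edgeR adjusted p was 0.0342 without control mouse 2 and 0.313 without control mouse 1.

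Among the β subunits, Itgb1 (chromosome 8, 128685654 to 128733200, plus strand) encodes β1, the partner of α1, α5, α6, α7, α9 and α11. It was at 566, 601 and 509 CPM in the control mice and at 518, 393 and 501 CPM in the aPU.1KO mice. The groups overlapped by 1 library on each side, and aPU.1KO mouse 2 stood below the others. The means were 559 ± 46.3 and 471 ± 67.5 CPM (SD, n = 3 each), and the log2 fold change was -0.25 (SE 0.13, edgeR adjusted p = 0.289). Without aPU.1KO mouse 2 it was -0.14.

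Itgb5 (chromosome 16, 33829665 to 33949338, plus strand) encodes β5, which with αv binds vitronectin and serves in uptake of dying cells. It was at 217, 244 and 216 CPM in the control mice and at 231, 201 and 242 CPM in the aPU.1KO mice. The groups overlapped throughout, with means of 226 ± 15.8 and 225 ± 20.9 CPM (SD, n = 3 each). The log2 fold change was -0.0053 (SE 0.10, edgeR adjusted p = 0.978).

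Itgb3 (chromosome 11, 104608000 to 104670476, plus strand) encodes β3, which pairs with αv in many cells and with αIIb in platelets. It was at 2.74, 2.14 and 2.14 CPM in the control mice and at 1.12, 1.45 and 1.33 CPM in the aPU.1KO mice, from 22 to 199 counts a library. The groups did not overlap, and control mouse 1, the deepest library, was the highest. The means were 2.34 ± 0.345 and 1.30 ± 0.166 CPM (SD, n = 3 each), with a log2 fold change of -0.86 (SE 0.24), an edgeR adjusted p of 0.1005 and a DESeq2 adjusted p of 0.0532.

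**Figure D2:**
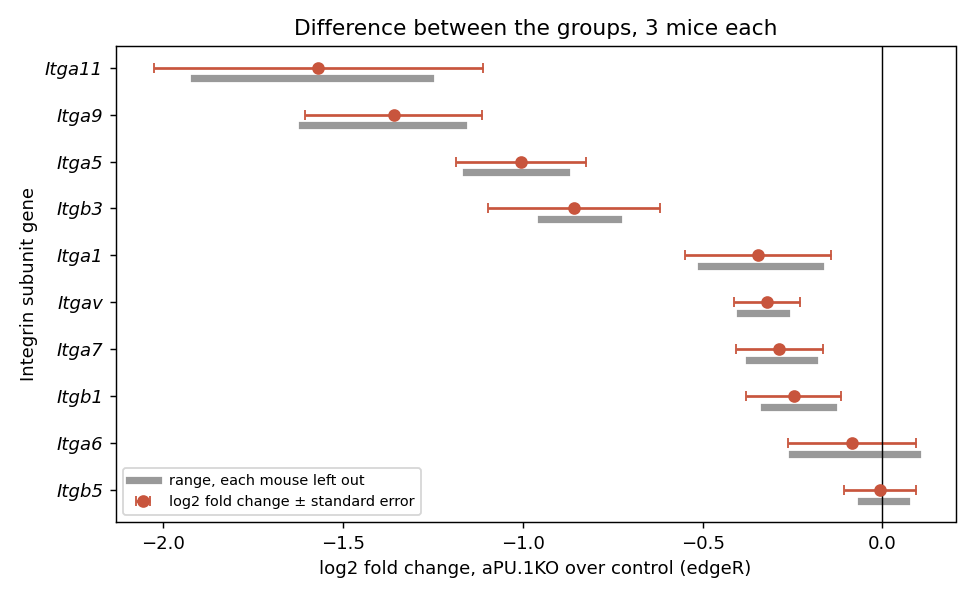
Log2 fold change of each integrin subunit gene, aPU.1KO over control, with the standard error as a red bar and the range when each mouse was left out in turn as a grey bar. Itga11, Itga9, Itga5 and Itgb3 lie between -1.57 and -0.86, and the range of Itga6 and of Itgb5 spans 0.

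Promoter windows are shown for the α subunit genes whose window lies at the start of the gene, Itga1, Itga5, Itga11 and Itgav. That of Itgb5, the gene with the smallest difference, is shown too. The Itgb1 window also lies at the start of its gene but is not printed. It holds GAGGAA, and the groups overlapped in Itgb1. RefSeq windows of 300 bases, from 250 before the transcript start to 50 after it (GRCm38), were at hand for 7 of the 10 genes. Capitals mark GAGGAA, the core of the sequence that PU.1 is known to bind, or its reverse complement TTCCTC, on the strand of the gene. The windows are at chr13:115101915-115102214 (minus strand, Itga1), chr15:103366742-103367041 (minus strand, Itga5), chr9:62677605-62677904 (plus, Itga11), chr2:83724147-83724446 (plus, Itgav) and chr16:33829415-33829714 (plus, Itgb5).
Itga1: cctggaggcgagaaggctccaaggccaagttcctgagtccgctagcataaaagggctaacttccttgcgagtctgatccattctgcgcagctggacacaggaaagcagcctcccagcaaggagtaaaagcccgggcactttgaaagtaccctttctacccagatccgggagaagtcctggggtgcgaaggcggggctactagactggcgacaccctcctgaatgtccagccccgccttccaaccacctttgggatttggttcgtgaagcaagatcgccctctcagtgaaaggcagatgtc
Itga5: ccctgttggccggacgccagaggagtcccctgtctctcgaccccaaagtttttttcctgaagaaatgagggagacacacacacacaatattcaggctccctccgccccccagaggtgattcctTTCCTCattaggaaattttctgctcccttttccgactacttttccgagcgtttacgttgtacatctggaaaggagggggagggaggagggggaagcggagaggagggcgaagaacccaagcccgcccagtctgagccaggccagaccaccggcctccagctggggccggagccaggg
Itga11: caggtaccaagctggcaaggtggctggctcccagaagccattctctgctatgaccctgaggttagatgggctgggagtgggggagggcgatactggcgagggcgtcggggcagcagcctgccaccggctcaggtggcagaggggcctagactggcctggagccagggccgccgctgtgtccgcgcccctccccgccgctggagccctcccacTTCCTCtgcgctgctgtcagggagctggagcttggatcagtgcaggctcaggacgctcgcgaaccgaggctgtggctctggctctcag
Itgav: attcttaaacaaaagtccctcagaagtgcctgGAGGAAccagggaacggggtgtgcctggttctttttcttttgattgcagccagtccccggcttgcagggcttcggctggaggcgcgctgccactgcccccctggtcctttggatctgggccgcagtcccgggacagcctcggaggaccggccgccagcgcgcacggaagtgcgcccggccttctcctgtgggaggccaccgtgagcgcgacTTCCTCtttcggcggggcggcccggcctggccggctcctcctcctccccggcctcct
Itgb5: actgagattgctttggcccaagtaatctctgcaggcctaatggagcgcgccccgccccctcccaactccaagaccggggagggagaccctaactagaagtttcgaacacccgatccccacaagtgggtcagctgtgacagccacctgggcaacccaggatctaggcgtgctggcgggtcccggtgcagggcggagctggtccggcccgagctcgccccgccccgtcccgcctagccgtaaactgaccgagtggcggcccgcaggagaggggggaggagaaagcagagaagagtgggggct
GAGGAA stood once in the Itga5, Itga11 and Itgb1 windows, 2 times in the Itgav window, and not in those of Itga1, Itga9 and Itgb5, so windows with and without it were found among the genes with lower means. It was in 28.3% of all 32851 promoter windows and in 26.7% of those of tested genes. The longer GAGGAAGT, which contains it, was in the Itga11 and Itgav windows and in 3.2% of all windows. CCGGAA, a core shared by other ETS factors, was in the Itgb1 window alone among the 7, in 14.9% of all windows and in 25.5% of those of tested genes. The transcript start in the Itga9 window lies 105002 bp inside that gene as GENCODE gives it, at an internal start. A match of these letters is not a measurement of binding.

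Levels between subunits were compared as CPM per kilobase of the merged exons of each gene. In control, Itgb1 came first at 137 ± 11.3 CPM per kilobase, followed by Itgb5 at 63.5 ± 4.43, Itga7 at 36.0 ± 4.49 and Itga6 at 33.9 ± 8.27 (SD, n = 3). A middle group held Itga1 at 6.84 ± 1.58, Itga5 at 6.58 ± 1.01 and Itgav at 5.87 ± 0.412 CPM per kilobase. Itga9 at 0.930 ± 0.0887, Itga11 at 0.441 ± 0.221 and Itgb3 at 0.397 ± 0.0584 CPM per kilobase came last. The control ranges overlapped between Itga7 and Itga6, between Itga1 and Itga5, between Itga5 and Itgav and between Itga11 and Itgb3, so those neighbours did not differ beyond their spread. In aPU.1KO, Itga5 was at 3.28 CPM per kilobase, below Itgav at 4.70. The order depends on the length used. With the longest transcript the control means of Itga7 and Itga6 came above that of Itgb5, but the control ranges of these genes overlapped. With the median transcript length Itgb5 came above Itgb1, Itgav at 57.1 came above Itga1 at 41.2 CPM per kilobase, and Itga9 at 11.0 overlapped Itga5 at 13.1 CPM per kilobase in control.

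**Figure D3:**
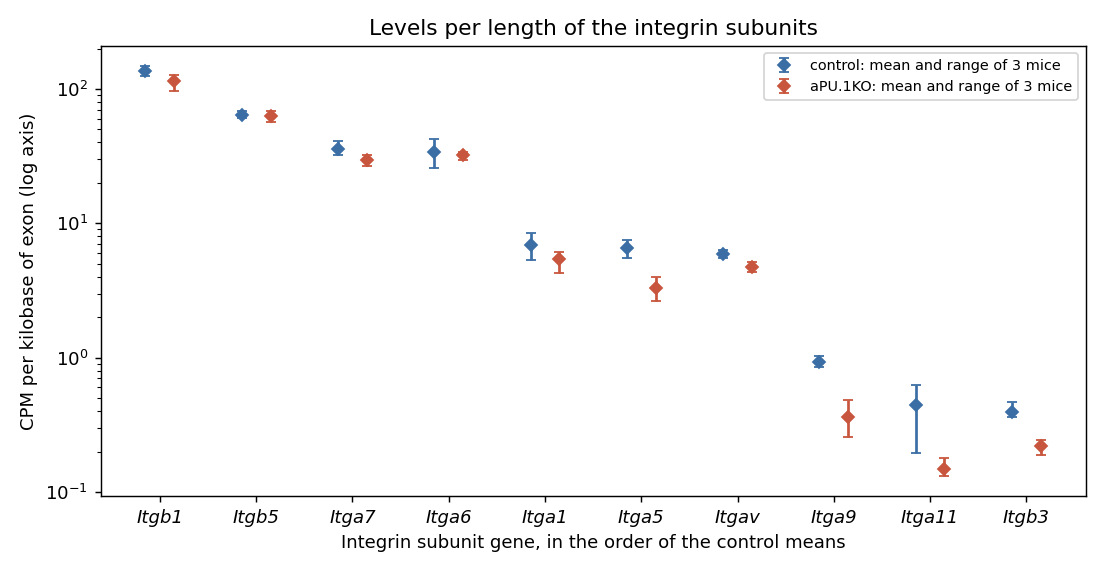
Level of each integrin subunit gene per length, in CPM per kilobase of merged exons on a log axis, as the mean and range of 3 control (blue) and 3 aPU.1KO mice (red). Control means run from 137 for Itgb1 to 0.397 for Itgb3, and the red ranges lie below the blue ones in Itga7, Itga5, Itgav, Itga9, Itga11 and Itgb3.

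The shares of the β subunits in the β subunit RNA did not overlap between the groups. Itgb1 made up 69.3%, 68.1% and 67.1% of the summed per-length level of the β members in the control mice and 66.0%, 62.9% and 64.3% in the aPU.1KO mice. Itgb5 made up 30.5%, 31.8% and 32.7% in control and 33.9%, 37.0% and 35.6% in aPU.1KO. Itgb3 was at 0.198% in control and 0.125% in aPU.1KO on average. The ratio of Itgb1 to Itgb5 counts, which needs no length or scaling, was 2.61, 2.46 and 2.35 in the control mice and 2.24, 1.95 and 2.07 in the aPU.1KO mice. With Itgb3 so small a part, the Itgb1 and Itgb5 shares restate this ratio. Another gene length therefore cannot change which libraries overlap. The shares and the ratio were described and not tested.

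Among the α members, Itga7 (40.0%) and Itga6 (37.2%) made up most of the summed per-length level in control, and each overlapped between groups. Itga5 made up 7.29 ± 1.33% in control and 4.36 ± 0.880% in aPU.1KO, and Itga9 made up 1.03 ± 0.124% and 0.476 ± 0.115% (SD, n = 3 each). Neither share overlapped between the groups. Itga11 made up 0.496% and 0.198%, and here control mouse 2 lay inside the aPU.1KO range. Against their partner Itgb1, the counts of Itga5 were at a ratio of 0.0655, 0.0453 and 0.0651 in control and 0.0250, 0.0409 and 0.0390 in aPU.1KO. The ratio of Itga9 to Itgb1 was 0.0139, 0.0109 and 0.0139 in control and 0.00520, 0.00506 and 0.00738 in aPU.1KO. The ratios of Itga1, Itga6, Itga7, Itga11 and Itgav to Itgb1 overlapped between groups. For the αv receptors, the ratio of Itgav to Itgb3 counts was 24.8, 27.7 and 28.8 in control and 49.1, 32.2 and 37.8 in aPU.1KO, and that of Itgav to Itgb5 was 0.313, 0.244 and 0.286 in control and 0.237, 0.231 and 0.207 in aPU.1KO.

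Of 9 other matrix-binding subunits, 7 were tested, 0 passed an adjusted p of 0.05 in edgeR, 2 had a lower level with an unadjusted p below 0.05, and DESeq2 called 2 lower after adjustment. Their median log2 fold change was -0.79. Itga4, which encodes α4, a receptor for VCAM1 and fibronectin on blood cells, was at 21.1, 7.40 and 16.0 CPM in control and 4.42, 3.80 and 4.59 CPM in aPU.1KO (log2 fold change -1.80, SE 0.37, edgeR adjusted p = 0.0764). Itga3, a laminin receptor subunit, was at 5.51 to 7.44 CPM in control and 4.32 to 5.70 CPM in aPU.1KO (log2 fold change -0.40, SE 0.19, edgeR adjusted p = 0.245). Itga2b, the platelet partner of Itgb3, was at 1.15 to 1.49 CPM in control and 1.18 to 2.08 CPM in aPU.1KO (log2 fold change 0.23, SE 0.30, edgeR adjusted p = 0.664), with the groups overlapping.

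The leukocyte subunits bind cell surface ligands and complement, and serve as a view of white blood cells. Of 7 tested, 6 had a lower level with an unadjusted p below 0.05 and 0 passed after adjustment in edgeR, DESeq2 called 5 lower, and the median log2 fold change was -2.41. Itgb2, the common leukocyte β2 chain, was at 139, 26.0 and 131 CPM in control and 20.3, 5.02 and 18.3 CPM in aPU.1KO (log2 fold change -2.77, SE 0.74, edgeR adjusted p = 0.0941). Itgax and Itgam, its myeloid partners, had log2 fold changes of -2.85 (SE 0.79, edgeR adjusted p = 0.0994) and -2.41 (SE 0.52, edgeR adjusted p = 0.0783). In all of these control mouse 2 was far below the other control mice, as it also was in Itga11.

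Among the collagen ligands, 7 of 10 had a lower level with an unadjusted p below 0.05, 9 were lower without overlap and 0 passed after adjustment in edgeR, and DESeq2 called 5 lower. Their median log2 fold change was -0.68. Col4a1, which encodes a chain of the basement membrane collagen that α1β1 binds, was at 2029, 2029 and 2075 CPM in the control mice and 1480, 1136 and 1405 CPM in the aPU.1KO mice (log2 fold change -0.61, SE 0.13, edgeR adjusted p = 0.0783). Col4a2, its partner chain, had a log2 fold change of -0.66 (SE 0.16, edgeR adjusted p = 0.0861). Col6a2, a chain of beaded-filament collagen, had -0.48 (SE 0.21, edgeR adjusted p = 0.211).

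The laminin ligands had a median log2 fold change of -0.25. Of 8 genes, 3 had a lower level with an unadjusted p below 0.05, 0 passed after adjustment in edgeR, and DESeq2 called 3 lower. Lamc1, the γ1 chain of most laminins, was at 416, 440 and 393 CPM in control and 316, 325 and 365 CPM in aPU.1KO, with no overlap (log2 fold change -0.31, SE 0.09, edgeR adjusted p = 0.113). Lama4, the α4 chain, was at 283 to 312 CPM in control and 260 to 351 CPM in aPU.1KO (log2 fold change 0.053, SE 0.12). Lamb1, the β1 chain, had a log2 fold change of -0.19 (SE 0.11, edgeR adjusted p = 0.326).

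Of the 14 ligands of the RGD receptors and of α9, 13 were tested and 8 were lower at an unadjusted p under 0.05, with a median log2 fold change of -0.66. Fbn1, which encodes the microfibril protein fibrillin-1 with its RGD motif, was the 1 gene of this list to pass after adjustment in edgeR, and DESeq2 called 7 lower. It fell from 82.2, 73.8 and 50.7 CPM in the control mice to 17.1, 20.3 and 17.6 CPM in the aPU.1KO mice (log2 fold change -1.91, SE 0.19, edgeR adjusted p = 0.0268). Fn1, which encodes fibronectin, the main ligand of α5β1, was at 183, 137 and 102 CPM in control and 44.4, 36.5 and 50.3 CPM in aPU.1KO, with no overlap (log2 fold change -1.69, SE 0.23, edgeR adjusted p = 0.0627). The abundant ligand Mfge8, a bridge to dying cells, was at 774 to 1254 CPM in control and 400.3 to 1022 CPM in aPU.1KO (log2 fold change -0.46, SE 0.35). Thbs1, which encodes thrombospondin 1, was at 271 to 453 CPM in control and 231 to 803 CPM in aPU.1KO, with aPU.1KO mouse 1 the highest. Both of these overlapped between groups.

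Among the related lists, those of the cytoplasmic machinery of adhesion had the medians closest to that of all genes. Of 27 tested activators and adaptors, 7 lay lower and 3 higher with an unadjusted p below 0.05. Over all genes tested, 13.7% were lower and 11.9% higher at that p. After adjustment 0 of these adaptors passed in edgeR and DESeq2 called 5 lower and 1 higher. Their median log2 fold change was -0.12. The most abundant were Tns1, which links β chains to actin (log2 fold change -0.12, SE 0.12), Flna, an actin crosslinker (-0.36, SE 0.28), and Actn4, an α-actinin (-0.011, SE 0.09). Fermt1, the epithelial kindlin, had at most 1 count in any library. Of 13 adhesion kinases and docking proteins, 2 lay lower and 1 higher with an unadjusted p below 0.05, 0 passed after adjustment in edgeR, DESeq2 called 1 lower and 0 higher, and the median was -0.09. Cav1, the caveolar protein, had a log2 fold change of 0.16 (SE 0.14), Crk, an adaptor, 0.020 (SE 0.08) and Nedd9, a docking protein, -0.50 (SE 0.30).

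**Figure D4:**
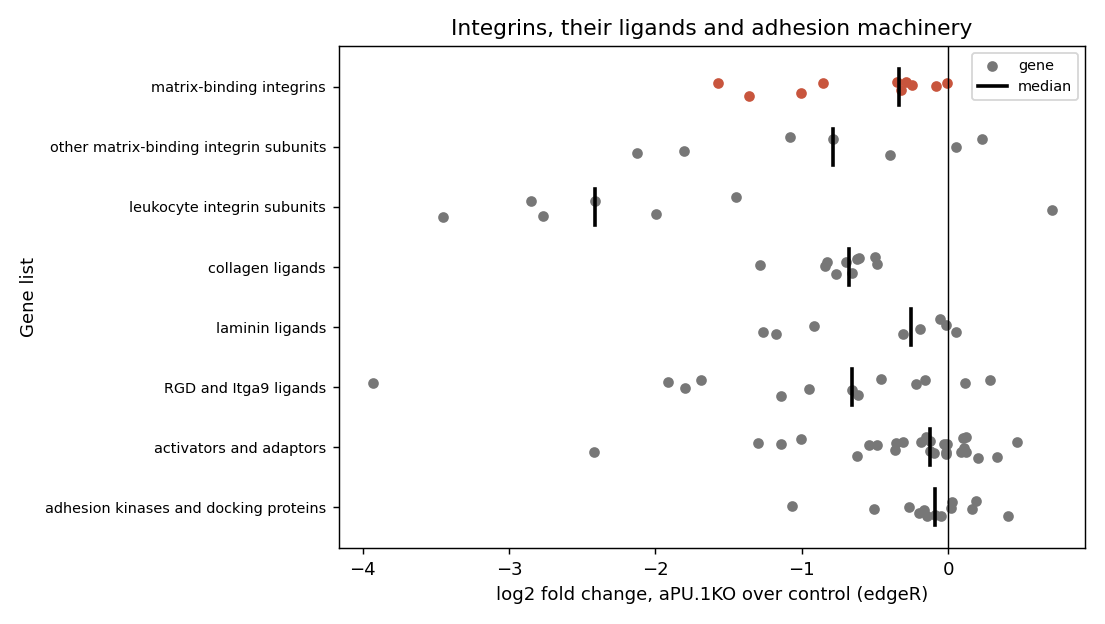
Log2 fold change of each tested gene, aPU.1KO over control, for the 10 matrix-binding integrin subunits (red) and for lists of related genes (grey), with a bar at each list median. Medians were -2.41 for the leukocyte subunits, -0.68 for the collagen ligands, -0.66 for the RGD and α9 ligands, -0.33 for the 10 subunits and between -0.25 and -0.09 for the laminins, adaptors and kinases.

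Markers of some other cell types moved with the groups, and their part in the integrin values was not tested. The 13 macrophage markers summed to 1599, 512 and 1547 CPM in control mice 1, 2 and 3 and to 353, 275 and 336 CPM in the aPU.1KO mice, with 11 of 13 lower at an unadjusted p under 0.05 and Mrc1 called in edgeR (adjusted p = 0.0389). The highest of them, Lyz2, was at 636, 143 and 653 CPM in control and 134, 62.1 and 103 CPM in aPU.1KO. Control mouse 2 had the lowest macrophage sum of the control mice, above that of every aPU.1KO mouse.

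The 11 fibroblast and progenitor markers summed to 1528, 1408 and 1445 CPM in control and to 1109, 1063 and 1190 CPM in aPU.1KO, with 8 of 11 lower at an unadjusted p under 0.05. Much of that sum was Col15a1, at 846 to 1013 CPM in control and 742 to 918 CPM in aPU.1KO. The 10 mural markers summed to 708, 866 and 598 CPM and to 466, 471 and 603 CPM, with the sums overlapping, 6 lower and Pdgfrb called in edgeR (adjusted p = 0.0491). The 10 endothelial markers summed to 771, 879 and 616 CPM and to 369, 783 and 485 CPM, with the sums overlapping and 2 lower. The platelet markers Gp1ba and Gp9 had at most 3 counts in any library, and the platelet list summed to 19.7, 9.19 and 18.4 CPM in control and to 5.03, 7.68 and 7.53 CPM in aPU.1KO, with no overlap. Nearly all of that sum was Pf4, and Ppbp, the other tested gene of the list, overlapped between groups.

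With the mean of the macrophage markers as a covariate, the log2 fold changes were -0.52 for Itga5, -0.95 for Itga9, -0.61 for Itgb3, -0.10 for Itgav, 0.35 for Itga11 and 0.012 for Itga7. With that of the fibroblast markers they were 0.15 for Itga5, -0.65 for Itga9, -0.16 for Itgb3, -0.27 for Itgav, -0.05 for Itga11 and -0.03 for Itga7. Away from 0 went Itga1, at -0.71 and -0.80 in these fits, Itga6, at -0.55 and -0.71, Itgb1, at -0.31 and -0.50, and Itgb5, at -0.14 and -0.20. None of the 10 had an unadjusted p under 0.05 in either fit. Over all genes tested, 214 lay lower and 87 higher below that p with the macrophage covariate, and 63 and 48 with the fibroblast covariate. With the macrophage and fibroblast covariates the SE was 0.32 and 0.27 for Itga5, beside 0.18 without a covariate. For Itga9 it was 0.47 and 0.69, beside 0.25, and for Itga11 0.68 and 1.45, beside 0.46. Neither marker sum overlapped between the groups, so marker score and group are hard to separate over 6 libraries. The shifts toward or away from 0 cannot be read on their own.

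**Figure D5:**
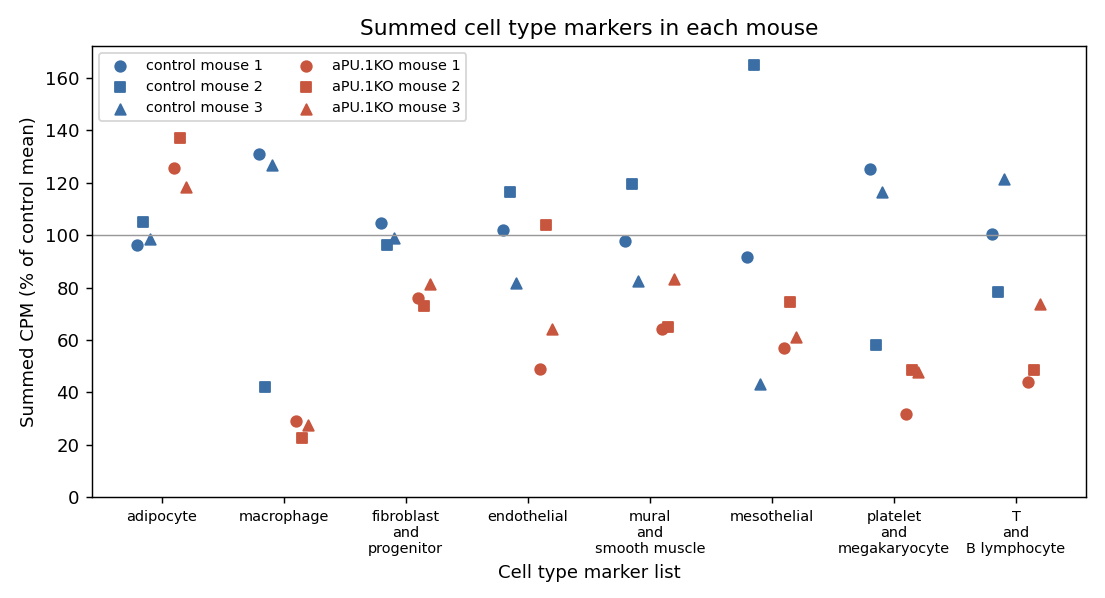
Summed CPM of each cell type marker list in each mouse, as a percentage of the control mean, with control in blue, aPU.1KO in red and a line at 100. The aPU.1KO sums of the macrophage list lie between 275 and 353 CPM, beside 512 CPM in control mouse 2, and the adipocyte sums lie above all control values.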

How the data were processed

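Each of 6 mice gave 1 RNA library of its adipocyte fraction, and mice are numbered 1 to 3 within the control and aPU.1KO groups. The authors quantified reads with Salmon, summed the transcripts to genes and deposited estimated counts, which are whole numbers and were used without rounding. The submitters' processing notes name the build GRCm38 and FastQC, while the Salmon version and annotation release are not given in the sources used here. Symbols and coordinates were taken from GENCODE M21, which matched 35031 of 35122 genes, and unmatched rows held 0.0367% of the counts.

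The fit used edgeR 4.0.16 under R 4.3.3 (filterByExpr, TMM scaling, glmQLFit and glmQLFTest with defaults), with Benjamini-Hochberg adjustment over 13925 genes. The SE is the log2 fold change divided by the root of F. DESeq2 1.42.0, limma-voom (limma 3.58.1), other scalings and filters, a thinned control library, each mouse left out and marker scores as covariates were alternatives. The longest transcript as length and the ratios of counts between subunits were added after seeing the data. The fits were tested on simulated data with 200 of 13925 genes changed. There edgeR called 157 changed and 7 unchanged genes, DESeq2 164 and 23, and limma-voom 159 and 8.

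The members and gene lists were chosen with earlier results of these data known. The text names all members, Spi1, the 3 tested genes of highest mean CPM in each related list and any with an adjusted p under 0.05, markers with 3 counts or fewer in all libraries, the most abundant marker, and the nearest profile of each member. Lep, Col15a1, Pf4, Ppbp and the marker genes given with an adjusted p are named beyond this rule as parts of their lists. A marker gene that the rule would name is not reported here.

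Shared sequence was searched with BLAST 2.17.0 at 90% identity over at least 100 bp, and the longest stretch shared between a member and another counted gene was 451 bp, between Itga1 and Gm49395. Promoter windows are from RefSeq on GRCm38. Python 3.11.15 and matplotlib 3.10.9 made the figures. No pair of libraries within a group was a duplicate. P-values measure the spread between mice, and control mouse 1 was the deepest library.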

Additional observations from a re-analysis of the deposited data

How the results depend on the processing

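Of 170 log2 fold changes of the 10 subunits under alternatives, 156 kept their direction and stayed above an adjusted p of 0.05. A further 8 kept their direction and passed it, and 6 turned sign. No subunit passed in the main fit, so no call could be lost, and the 156 say nothing of size. They include -0.16 for Itgb3 and -0.05 for Itga11 with the fibroblast covariate, beside -0.86 and -1.57 in the main fit. The turned values were 0.15 for Itga5 with the fibroblast covariate, 0.012 for Itga7 and 0.35 for Itga11 with the macrophage covariate, 0.098 for Itga6 when control mouse 2 was left out (-0.25 to 0.098 over all mice left out), and 0.044 and 0.065 for Itgb5 with control mouse 2 and with mouse 2 of aPU.1KO left out (-0.058 to 0.065). The 33 genes called by edgeR (8 higher, 25 lower) became 5 (2 higher, 3 lower) with at least 10 counts in every library, 146 (21 and 125) with no filter, 1833 (585 and 1248) with DESeq2 and 0 (0 and 0) with either covariate. They ranged from 0 without control mouse 1 to 1193 without control mouse 2 when each mouse was left out (higher 0 to 202, lower 0 to 991). Of the 10 subunits, 0 were called by edgeR, 1 with no filter (Itga5, adjusted p = 0.0498), 4 with DESeq2 and 0 to 3 when each mouse was left out, the 3 being without control mouse 2. The 5 lower at an unadjusted p under 0.05 became 0 with either covariate. The causes of these changes were not tested. Control levels per length and shares of a subunit class moved by more than 1 SD in 27 cases, all 27 with another gene length. Itga11 and Itgb3 rest on as few as 15 and 22 counts a library. No paired analysis was run. The study used littermate controls, but the labels number the animals singly, name no litter and share no replicate number between groups. A litter effect was not modelled.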

Other observations

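For each subunit, the gene with the most similar profile over the 6 libraries was sought among 11897 genes by the root mean square difference in centred log2 CPM. Itga9 was nearest to Tnxb, which encodes the matrix protein tenascin X (0.131), and Itga5 to Mfhas1 (0.0789). Itgb3 was nearest to Rhoj (0.0623), and Itga11 to Sh3bp2, an adaptor protein (0.133). Itga7 was nearest to Wnt5a, a secreted signalling protein (0.0324), Itgb1 to Edem1, which serves in the disposal of misfolded proteins (0.0282), Itgav to Cdk5rap2, a centrosomal protein (0.0365), and Itga1 to Card14 (0.0508). Itga6 was nearest to 4932438A13Rik (0.0522) and Itgb5 to AU022252 (0.0116). These are the closest of many genes over 6 libraries.

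Tnxb was at 145, 113 and 131 CPM in control mice 1, 2 and 3 and at 60.5, 40.5 and 62.7 CPM in aPU.1KO mice 1, 2 and 3 (log2 fold change -1.25, SE 0.18, edgeR adjusted p = 0.0718). The groups did not overlap, and aPU.1KO mouse 2 was the lowest. Tnxb was picked for its nearness to Itga9, so its likeness to Itga9 is not a separate observation.

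The mesothelial list summed to 5.27 to 20.2 CPM in control and 6.96 to 9.13 CPM in aPU.1KO, with 0 of 7 tested genes past an unadjusted p of 0.05. The lymphocyte list summed to 5.69 to 8.80 CPM and to 3.20 to 5.35 CPM, with 1 of 6 lower, and the neutrophil and mast cell list to 36.4 to 55.6 CPM and to 21.96 to 26.2 CPM, with 4 of 5 lower. Of the Schwann cell list, 0 of 2 tested genes passed, and Sox10 had 3 counts or fewer in all libraries. Of the testis and epididymis list, Prm1, Prm2, Tnp1, Adam7 and Lcn5 had 3 counts or fewer in all libraries, and 0 of 1 tested gene passed. Immediate early genes, which rise during tissue digestion, summed to 2879 to 3514 CPM in control and to 4186, 6521 and 2328 CPM in aPU.1KO mice 1, 2 and 3, with 0 of 9 past an unadjusted p of 0.05.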
